A study of Bos grunniens with 18 samples.

Results

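The expression of PINK1 and of 8 further mitophagy genes was examined in the ovary of the yak (Bos grunniens) during estrus (YO-F), pregnancy (YO-P) and the anestrus between breeding seasons (YO-A). The list named PINK1, BNIP3, BNIP3L, FUNDC1, OPTN, SQSTM1, TBK1, MFN2 and USP30, and a gene entered by its symbol in the expression table. Among the 173 genes analysed here, 1 of the 9 had a row, PINK1. The other 8 were not analysed here, so the results below describe PINK1 and, from a wider list of 92 mitophagy and autophagy genes, OMA1, the only one of the 92 with a row. PINK1 was chosen by its FPKM values in these same libraries and by the m6A regions assigned to it. Its stage differences are therefore given as a description, with no test.

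The ovaries came from healthy yaks, all 6 years old and slaughtered on 1 farm. Anestrus ovaries were taken in April, estrus ovaries in August and pregnancy ovaries in December. Each stage had 3 input libraries of poly(A) RNA, and 3 further libraries from RNA immunoprecipitated with an antibody against N6-methyladenosine (m6A), a methyl mark on adenosines inside mRNA. No treatment or genetic change was applied. Stage and month of collection cannot be told apart. The labels do not tie the 3 libraries of a stage to separate animals, and a p-value measures only the spread between the libraries.

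PINK1 encodes a serine/threonine kinase with a mitochondrial targeting sequence. In healthy mitochondria it is imported and quickly degraded, whereas on mitochondria that have lost their membrane potential it accumulates at the outer membrane, where it phosphorylates ubiquitin and the ubiquitin ligase Parkin and so marks the organelle for removal by autophagy. Of the other genes on the list, BNIP3, BNIP3L and FUNDC1 are outer membrane receptors that bind the autophagosome directly. OPTN and SQSTM1 encode adaptors that link ubiquitin to the autophagosome, and TBK1 is a kinase of such adaptors. MFN2 is an outer membrane fusion protein, and USP30 is a deubiquitinase of that membrane. Granulosa and luteal cells make steroids with mitochondrial enzymes, so mitochondria are part of the endocrine work of the ovary.

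Expression was given by the authors as FPKM, fragments per kilobase of exon, scaled to the mapped fragments of the library. Number of fragments and depth were not part of the table, so no counting error could be set beside a value. The 173 genes lay on chromosomes 1 (135 genes), 2 (19), 3 (16) and 4 (3). Of 67 markers in 8 groups of ovarian and other cell types, 0 were among these genes, and the labelled tissue could not be checked against them. YO-F2, which the study left out after its principal component analysis, had a median correlation of 0.800 with the other libraries over 130 genes, against 0.928 to 0.960 for the other 8. Its values are printed here beside those of YO-F1 and YO-F3, but folds rest on the other 8 libraries unless stated.

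PINK1 (ENSBGRG00000000185, chr2:4785163-4907008, plus strand, in the annotation used by the authors) was higher in estrus than in either other stage. Its FPKM was 13.3, 12.7 and 13.5 in YO-A1, YO-A2 and YO-A3. In estrus it was 23.9 in YO-F1, 17.8 in YO-F2 and 18.7 in YO-F3, and in pregnancy it was 13.3, 15.3 and 13.6 in YO-P1, YO-P2 and YO-P3. The lowest estrus library, YO-F2, lay above the highest of the 6 other libraries, YO-P2, so the estrus range did not overlap with the others. The ranges of anestrus and pregnancy overlapped. Because these are bulk ovaries, more PINK1 RNA per cell and a larger share of cells that express PINK1 cannot be told apart.

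**Figure D1:**
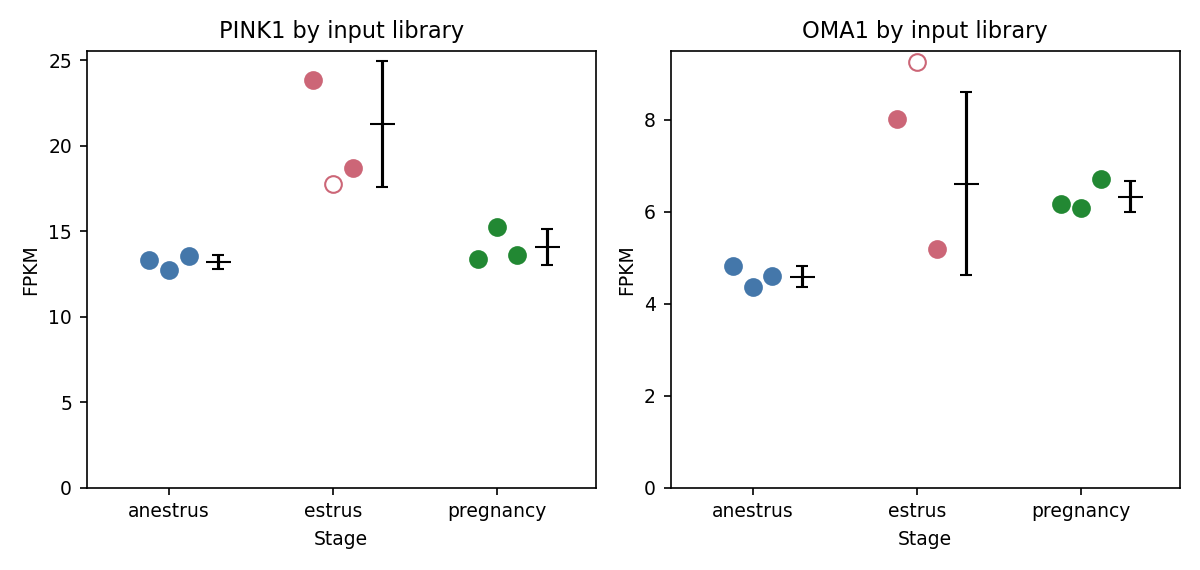
FPKM (y axis) of PINK1 (left) and OMA1 (right) in each input library, by stage (x axis). Filled points are the 8 libraries used in the fit, the open point is YO-F2, and the bar with whiskers is the mean ± SD of the filled points. The 3 estrus libraries of PINK1 lie between 17.8 and 23.9 and the 6 others between 12.7 and 15.3, while for OMA1 the 3 anestrus libraries, between 4.35 and 4.81, are the lowest.

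The mean FPKM of PINK1 was 21.3 ± 3.67 (SD, n = 2) in estrus. In pregnancy it was 14.1 ± 1.04 (SD, n = 3), and the anestrus mean was 13.2 ± 0.416 (SD, n = 3). With YO-F2, the estrus mean was 20.1 ± 3.29 (SD, n = 3). The order of the means was thus estrus, pregnancy and anestrus, and the last 2 neighbours did not differ beyond their spread. Within anestrus PINK1 varied little, with a coefficient of variation of 3.15% against a median of 22.4% over 130 genes, and 1 gene varied less. In pregnancy its coefficient of variation was 7.37%, with a median of 18.3% over 128 genes, of which 21 varied less. In estrus it was 17.2%, close to the median of 16.7%, and 64 of 128 genes varied less. These medians take in genes down to a mean FPKM of 0.1 and are not matched to the level of PINK1. The estrus value rests on YO-F1 and YO-F3 only, so its spread cannot be assigned to 1 of them. YO-F1 was 0.85 above the anestrus mean on the log2 scale, where YO-F2 was 0.42 and YO-F3 was 0.50 above it. By level, PINK1 was between the 41st and the 46th of the 173 genes in the anestrus libraries, between the 37th and the 43rd in pregnancy and between the 28th and the 36th in estrus.

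In YO-FvsA, the log2 fold change of PINK1 was 0.67 (SE 0.15) in the limma fit on log2(FPKM + 0.1), a 1.59-fold higher level in estrus, and the ratio of the mean FPKM was 1.61. This was the 9th highest of 130 log2 fold changes, whose median was 0.07. With YO-F2 the ratio of the means was 1.52. By the study's standard (log2 fold change of 1 or more in size, unadjusted p under 0.05) the fit called 2 of 130 genes (1.54%), and PINK1 was not one of them. In limma, 12 genes (9.23%) had an unadjusted p under 0.05 and 0 (0%) an adjusted one, a count that was 5 without YO-F3. With YO-F2 left out, YO-F1 and YO-F3 lay above all anestrus libraries in 16 genes (12.3%), PINK1 among them, and these libraries did not overlap in either direction in 25 genes (19.2%). Nothing is read from these shares for PINK1, since the same contrast chose it. Without YO-F1 the log2 fold change of PINK1 was 0.50 and without YO-F3 it was 0.85.

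In YO-FvsP, the log2 fold change of PINK1 was 0.58 (SE 0.15), a 1.50-fold higher level in estrus and the 11th highest of 130, where the median was 0.07. The ratio of the mean FPKM was 1.51, or 1.43 with YO-F2. The standard called 3 genes (2.31%) and did not call PINK1. By limma, 12 genes (9.23%) had an unadjusted p under 0.05 and 0 (0%) an adjusted one. YO-F1 and YO-F3, again without YO-F2, lay above all pregnancy libraries in 26 genes (20%), PINK1 among them, and were apart from them in either direction in 35 genes (26.9%). YO-FvsA and YO-FvsP share the estrus libraries, so they are not independent of each other.

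In YO-PvsA, the log2 fold change of PINK1 was 0.09 (SE 0.14), or 1.06-fold, the 48th highest of 130 with a median of -0.03. The difference was smaller than its standard error. The standard called 3 genes (2.31%), 4 genes (3.08%) had an unadjusted p under 0.05 in limma, and 0 (0%) had an adjusted one. Pregnancy lay wholly above anestrus in 7 genes (5.38%) and the stages were apart in either direction in 12 (9.23%), and PINK1 was in neither group.

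**Figure D2:**
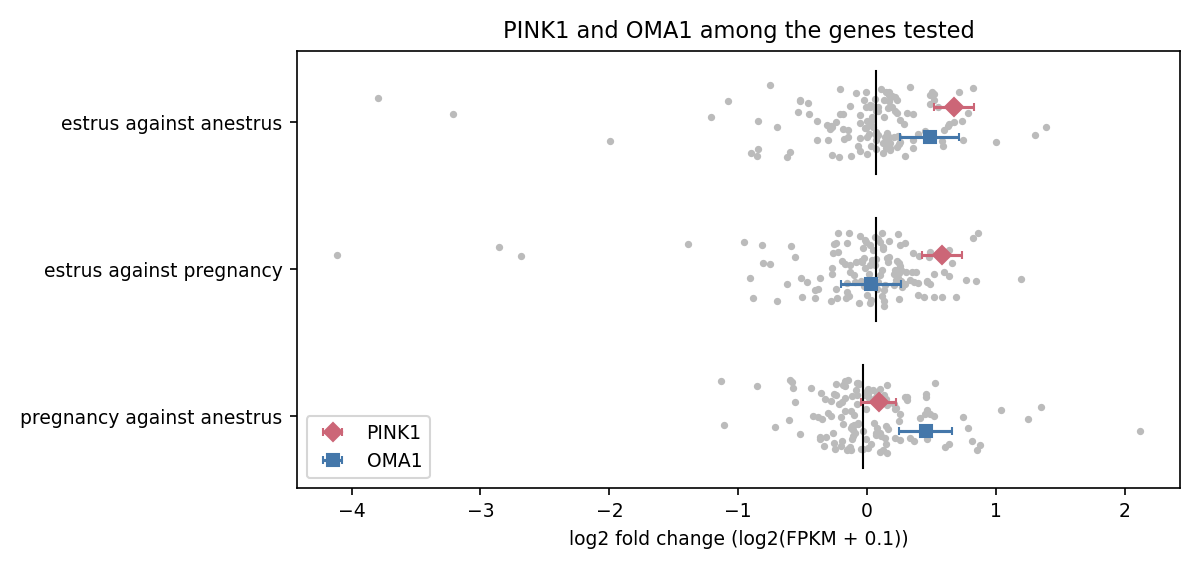
The log2 fold change on the log2(FPKM + 0.1) scale (x axis) in each of the 3 comparisons (y axis), for PINK1 (diamond), OMA1 (square) and the other genes of the 130 tested (grey points, spread vertically for visibility). Whiskers are ± 1 SE from limma and the vertical line in each row is the median of all 130 genes. PINK1 is at 0.67, 0.58 and 0.09 and OMA1 at 0.48, 0.03 and 0.45.

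All 3 estrus libraries were above all 6 other libraries in 7 of 130 genes (5.38%), and with YO-F2 set aside in 11 (8.46%). The 7 were PINK1, CHMP2B, USP16, CRYZL1, MRPS6, PSMD2 and a gene without a symbol, ENSBGRG00000000144. CHMP2B is a subunit of the ESCRT-III complex, which severs membranes in endosome sorting and autophagosome closure, and its FPKM was 16.6 to 24.2 in estrus and 12.6 to 16.4 elsewhere. PSMD2, a subunit of the regulatory particle of the proteasome, was at 66.3 to 74.8 in estrus and 50.5 to 65.8 elsewhere. Of these 7 genes, PINK1 and CRYZL1 had the widest relative gap between the lowest estrus library and the highest other library. It was 17.8 against 15.3 for PINK1 and 12.2 against 9.78 for CRYZL1. For CHMP2B, PSMD2 and USP16 (19.0 against 18.5) the groups were separated by less than 1 FPKM. These genes were singled out after their values were seen.

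OMA1 (ENSBGRG00000000253, chr3:95058460-95124688, plus strand) is a metallopeptidase of the mitochondrial inner membrane, active when the membrane potential falls, and it cleaves the fusion protein OPA1. OMA1 is also known to cleave PINK1 that fails to stabilise at the membrane. Its FPKM was 4.81, 4.35 and 4.60 in YO-A1 to YO-A3, then 8.01 in YO-F1, 9.25 in YO-F2 and 5.20 in YO-F3, and 6.17, 6.08 and 6.71 in YO-P1 to YO-P3. The anestrus libraries were the lowest 3 of the 9, and the estrus range enclosed that of pregnancy. YO-F1 and YO-F3 lay above all anestrus libraries in 16 of 130 genes (12.3%), OMA1 among them. The share of genes with anestrus below both other stages was not counted. The order of the stages for OMA1 differed from that of PINK1, for which pregnancy lay with anestrus.

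The mean FPKM of OMA1 was 4.59 ± 0.231 (SD, n = 3) in anestrus. In pregnancy it was 6.32 ± 0.341 (SD, n = 3), and the estrus mean was 6.60 ± 1.99 (SD, n = 2). In YO-FvsA its log2 fold change was 0.48 (SE 0.23, limma adjusted p = 0.532). Without YO-F1 it was 0.18 and without YO-F3 it was 0.79. In YO-PvsA it was 0.45 (SE 0.21, adjusted p = 0.874). The pregnancy libraries of OMA1 lay above all anestrus libraries, as in 7 of 130 genes (5.38%). In YO-FvsP it was 0.03 (SE 0.23, adjusted p = 0.982). OMA1 was called by neither rule in any of the 3 comparisons, so 0 of the 1 gene of the wider list passed in either direction. With YO-F2 included, the ratio of the estrus to the anestrus mean rose from 1.44 to 1.63.

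The row of PINK1 covered 121846 bases, against a median of 15302 over the 173 rows, and 26 rows were longer. Within this span lay, on the minus strand, the whole rows of DDOST (4809446-4826041) and KIF17 (4828371-4895857), and 7457 bases of that of SH2D5 (4899552-4912924). Only 2 of the 173 rows overlapped 3 or more others. The transcript model given for PINK1 in the m6A region table was shorter, chr2:4785163-4810601, or 25439 bases, which is 20.9% of the row. The RefSeq table of the yak (assembly Bosgru_T2T1.0), used for names and order only, had PINK1 between CDA and DDOST and then KIF17 and SH2D5, the same order.

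The values of the PINK1 row also differed in form from those of most rows with 1 transcript identifier. Of 110 such rows, 106 held values of at most 6 decimals in all libraries, and PINK1 was one of the 4 that did not. All 63 rows with 2 or more identifiers held longer decimals. Which transcripts entered the FPKM of PINK1 is not given in the sources used here. The library protocol marks the second strand with dUTP, but the strand setting of the quantification is not given either, so reads of PINK1 and of the genes on the other strand may not be fully separated.

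**Figure D3:**
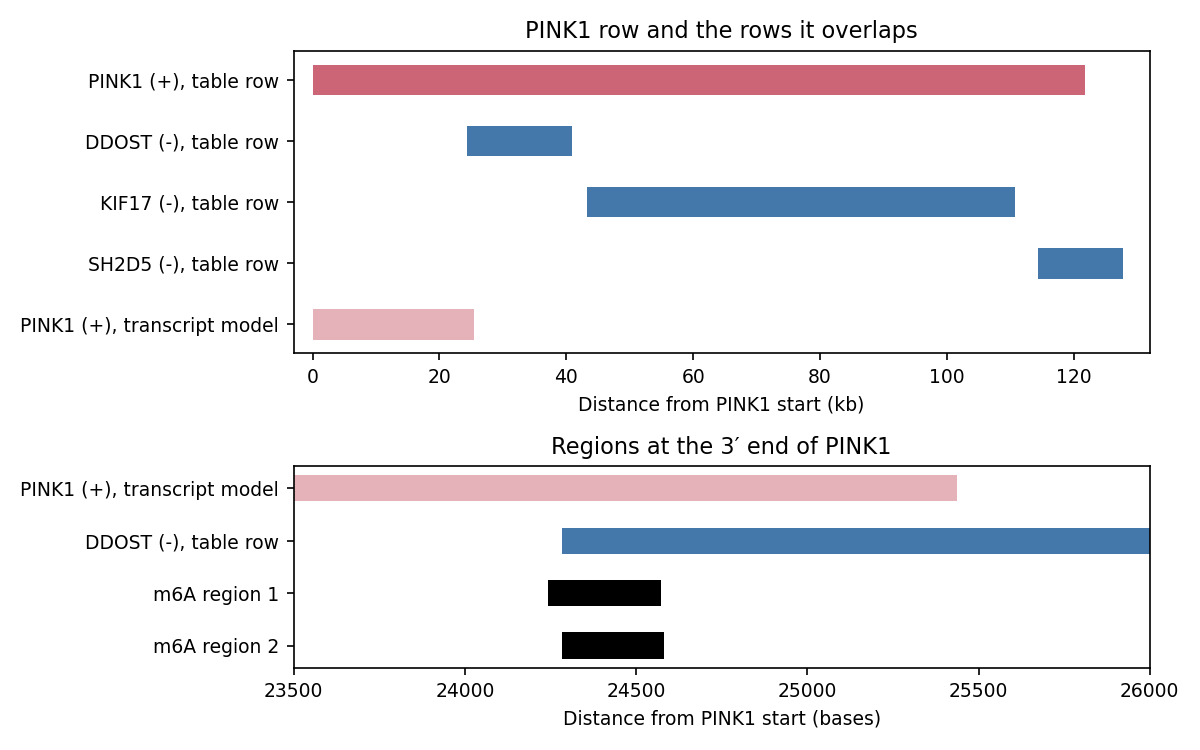
Upper panel, the spans of the rows of PINK1, DDOST, KIF17 and SH2D5 and of the PINK1 transcript model, with the distance from the start of PINK1 in kilobases on the x axis and strands in parentheses. Lower panel, the 3′ end of the transcript model with the 2 m6A regions and the lower end of the DDOST row, in bases. The model covers 20.9% of the row, and both regions lie mostly or wholly inside the DDOST span.

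The overlapping genes were read beside PINK1 in every library. DDOST, a subunit of the oligosaccharyltransferase of the endoplasmic reticulum, had an FPKM of 86.3, 63.7 and 53.3 in anestrus, 63.6, 79.8 (YO-F2) and 76.5 in estrus and 67.8, 51.3 and 56.9 in pregnancy. The 3 stages overlapped, and the log2 fold change was 0.07 in YO-FvsA (limma adjusted p = 0.945), 0.26 in YO-FvsP (adjusted p = 0.739) and -0.19 in YO-PvsA (adjusted p = 0.910). KIF17, a kinesin motor, lay between 0.613 and 2.12 in 8 libraries and at 26.8 in YO-F2, where PINK1 was 17.8, the lowest of its 3 estrus values. Without YO-F2, its log2 fold change was -0.21 in YO-FvsA (adjusted p = 0.945), -0.01 in YO-FvsP (adjusted p = 0.998) and -0.20 in YO-PvsA (adjusted p = 0.910). SH2D5, an adaptor with an SH2 domain, was between 0.0460 and 0.664 in the 9 libraries, with log2 fold changes of -0.70, 0.15 and -0.85 (adjusted p = 0.743, 0.982 and 0.874). The part of these genes in the PINK1 values was not tested.

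Of the 81 genes with a symbol and a mean FPKM of at least 1, MRPS6, CRYZL1 and USP16 had the log2(FPKM + 0.1) pattern most like that of PINK1 over the 8 libraries, with Pearson correlations of 0.968, 0.929 and 0.860 and Spearman correlations of 0.738, 0.738 and 0.881. These are descriptions over libraries that fall into stages, and they carry no p. Among the 6 libraries not in estrus, the correlations were 0.642 for MRPS6, 0.104 for CRYZL1 and 0.330 for USP16, so the likeness lay mainly in the step between estrus and the rest. With YO-F2 as the 9th library they were 0.963, 0.778 and 0.776. MRPS6 was then still the first of the 81, but U2SURP (0.827) and CHMP2B (0.784) came before CRYZL1, and USP16 was the 6th. By the Spearman correlation over 8 libraries USP16 was the first, and MRPS6 and CRYZL1 shared the 5th place.

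MRPS6, a protein of the small subunit of the mitochondrial ribosome, had the highest Pearson correlation with PINK1 over 8 and over 9 libraries. Its FPKM was 60.7, 55.4 and 61.1 in anestrus, 92.9, 69.4 (YO-F2) and 77.0 in estrus and 59.7, 64.7 and 53.3 in pregnancy. For MRPS6 as for PINK1, YO-F1 was the highest library, YO-F2 the lowest of estrus and YO-P2 the highest of pregnancy. CRYZL1, a quinone oxidoreductase-like protein, was at 9.36, 8.98 and 9.78 in anestrus, 16.2, 21.1 (YO-F2) and 12.2 in estrus and 7.64, 9.04 and 9.50 in pregnancy. It parted from PINK1 in YO-F2, its highest library. USP16, a deubiquitinase of histone H2A, moved in the same direction but over a narrower range, from 16.7, 17.3 and 18.5 in anestrus to 20.2, 21.3 (YO-F2) and 19.0 in estrus, with 17.5, 17.9 and 18.3 in pregnancy. The ratio of its estrus to its anestrus mean was 1.12, against 1.61 for PINK1. MRPS6, CRYZL1 and USP16 all lay on chromosome 1, as did 135 of the 173 genes.

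**Figure D4:**
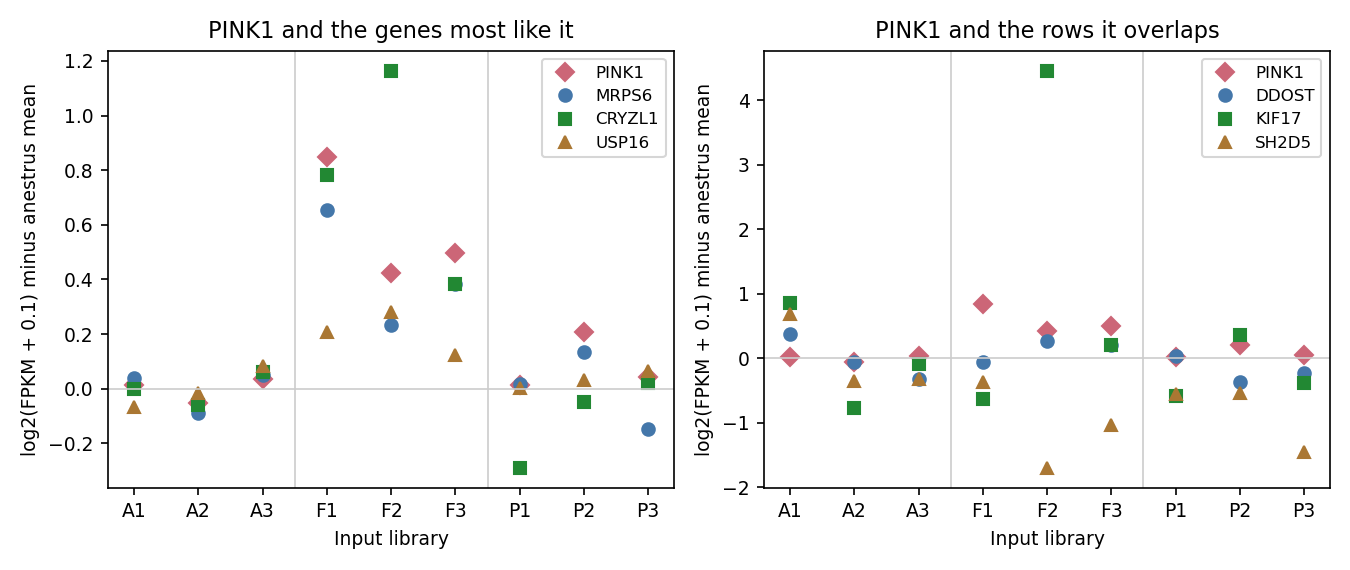
log2(FPKM + 0.1) minus the mean of the 3 anestrus libraries (y axis) in each input library (x axis, A1 to P3), for PINK1 with the 3 genes most like it (left) and with the 3 rows it overlaps (right). At F1 PINK1 is at 0.85. At F2 CRYZL1 is the highest on the left and KIF17, at 4.46, on the right, while PINK1 is at 0.42.

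In the m6A data, PINK1 had 2 of the 264 regions listed in the authors' table of estrus against pregnancy, from which only positions and annotations were used. They were chr2:4809407-4809736 (330 bases) and chr2:4809446-4809745 (300 bases), both annotated as 3′ UTR, a class that held 103 of 263 regions (39.2%). The 2 regions shared 291 bases, 88.2% of the longer one, and together covered 339 bases. They ended 865 and 856 bases before the end of the transcript model. Of 247 genes in the table, 16 (6.48%) had 2 or more regions.

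Both PINK1 regions reached into the span of DDOST on the other strand, with 291 and 300 of their bases inside it, and the second region began at the lowest coordinate of the DDOST row. Of the 263 regions with a whole annotation, 0 were assigned to DDOST, 0 to KIF17, 0 to OMA1 and 0 to the other 8 genes of the list. Whether the regions analysed here reach those genes is not known, so a 0 is not read as absence of m6A. The m6A peak lists of the single stages, as analysed here, covered chromosome 1 only and did not reach PINK1. They held 282 peaks for pregnancy, 18 for estrus and 9 for anestrus. These are not totals of a stage, and no difference between stages is read from them. Whether PINK1 carried m6A at these positions in each stage was not analysed here.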

How the data were processed

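Ovarian poly(A) RNA was sequenced in 9 input libraries, 3 for each of 3 stages. The authors filtered reads with fastp, aligned them with HISAT2 (version 2.0.4 in the submitters' processing notes) to the Bos grunniens genome, and deposited StringTie values as FPKM, with no further scaling stated. m6A regions were annotated with ChIPseeker 1.18.0, and the caller and its pooling of replicates are not given in the sources used here. Of the region tables, only positions and annotations were used. Their columns of the authors' own comparisons (fold changes, p-values) were not used.

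In the expression table, 1 line without values was left out. The 130 of 173 genes whose FPKM averaged 0.1 or more in the 9 libraries were fitted as log2(FPKM + 0.1) with limma 3.58.1 in R 4.3.3, by a linear model with empirical Bayes moderation and a trend on mean expression, for the 3 stages in 1 fit of 8 libraries. YO-F2 was left out, as in the study. P-values were adjusted by the Benjamini-Hochberg method over the 130 genes. A fold change on this scale understates the change of low genes. FPKM holds no counts, so the depth is unknown and the study's count test was not used. Of 1557 values, 344 were 0, and 0 pairs of libraries were identical. The fit was tested on simulated data with a change far larger than those of PINK1 and OMA1. That test does not show how well changes of their size are found. Figures were drawn with matplotlib 3.10.9 in Python 3.11.15.

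The genes named by rule were the 9 list members, the members of the wider list (all of them, as 1 had a row) and genes whose span overlaps PINK1. To these came the 3 genes with a symbol and an average FPKM of 1 or more whose log2 values had the highest Pearson correlation with PINK1 over the 8 libraries. Other genes were named after their values were seen. They were genes with all 3 estrus libraries above the 6 others, genes with a mitochondrial, Mitophagy or Parkinson disease term, U2SURP and MRPS33. The gene lists and the list members were chosen with earlier results of these data known. The alternatives were other pseudocounts, filters, scalings and moderation, YO-F2 included, a fit of the 2 compared stages, the replicate number as a block, and leaving out each library.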

Additional observations from a re-analysis of the deposited data

How the results depend on the processing

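Leaving out libraries, adding YO-F2 or changing the pseudocount could not reverse the direction for PINK1, whose estrus libraries all lay above the others. PINK1 was higher in estrus under every alternative run, and this is not counted as support. Its log2 fold change lay between 0.50 and 0.85 in YO-FvsA and between 0.41 and 0.76 in YO-FvsP when 1 library was left out, with the ends set by YO-F1 and YO-F3. A lone estrus library is there assumed to vary like the other groups. Under the other alternatives it lay between 0.59 and 0.69 and between 0.50 and 0.60. In YO-PvsA it stayed between 0.03 and 0.13. OMA1 was called under none of them, and its sign in YO-FvsP varied, with -0.05 under median-ratio scaling and -0.28 without YO-F1. In YO-FvsA it was 0.18 without YO-F1 and 0.79 without YO-F3. The counts of genes called by the standard were small and moved. In YO-FvsA the 2 genes became 1 with a pseudocount of 1, with a minimum mean FPKM of 1, with median-ratio scaling and with only the 2 stages fitted, and 5 with YO-F2 included. Leaving out 1 library gave 1 to 9, with 9 without YO-F3, 4 without YO-A3 and 1 without each pregnancy library. In YO-FvsP the 3 genes became 1 with a pseudocount of 1 and 5 with YO-F2, and 3 to 9 without 1 library (9 without YO-F3, 5 without YO-P2). In YO-PvsA the 3 became 1 with a pseudocount of 1, and 1 to 4 without 1 library (1 without YO-A3). The cause was not tested. Genes with an adjusted p under 0.05 were 0 in the fit reported. In YO-FvsA they were 5 without YO-F3, and 1 with a pseudocount of 0.01, with a minimum mean FPKM of 1, with median-ratio scaling, with only the 2 stages fitted, without YO-P1 and without YO-P2. In YO-FvsP they were 1 with only the 2 stages fitted and without YO-A3, YO-F3 or YO-P1, and in YO-PvsA 0 throughout. In a fit with a replicate block, PINK1 was 0.69 and 0.60 higher in estrus than in anestrus and pregnancy on the log2 scale and 0.09 higher in pregnancy than in anestrus, with 1, 4 and 4 genes called. OMA1 was then 0.45 higher in estrus and in pregnancy than in anestrus. The numbers were not taken to pair the libraries, since the ovaries came from slaughtered animals. Same-numbered libraries deviated with correlations of -0.170 to 0.389. Differently numbered libraries were not correlated for comparison, so these values cannot decide whether libraries are paired. Peak thresholds and overlaps gave no value, because the stage lists did not reach PINK1.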

Other observations

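A further 8 genes with a mitochondrial, Mitophagy or Parkinson disease term in the authors' annotation, chosen after the values were seen, stand beside PINK1 and OMA1. Over all genes tested, all 3 estrus libraries lay above all 6 others in 7 of 130 (5.38%). Among the genes with such a term these were PINK1 and MRPS6, described above for this pattern, and ENSBGRG00000000144. OMA1, SOD1, MRPL39, CXADR, UBE2G2, ENSBGRG00000000028 and ENSBGRG00000000060 also had such a term and did not show the pattern. In YO-FvsA, the log2 fold change was 0.15 for CXADR and 0.09 for UBE2G2. For ENSBGRG00000000028 it was -0.39 and for ENSBGRG00000000060 it was -0.05. ENSBGRG00000000144, annotated with ATP synthase activity and oxidative phosphorylation, had an FPKM of 204 to 213 in estrus and 167 to 197 elsewhere. SOD1 is the cytosolic and intermembrane space superoxide dismutase. Its mean FPKM was 76.7 ± 2.98 (SD, n = 3) in anestrus, 112 ± 19.5 (SD, n = 3, YO-F2 included) in estrus and 95.3 ± 9.25 (SD, n = 3) in pregnancy. As for OMA1, anestrus was the lowest stage and the other stages overlapped. Over the 8 libraries of the fit, estrus lay above anestrus in 16 of 130 genes (12.3%). Pregnancy lay above anestrus in 7 (5.38%), and SOD1 was in both groups. MRPL39, of the large subunit of the mitochondrial ribosome, lay between 15.6 and 18.5 in all 9 libraries with overlapping stages. MRPS6, of the small subunit, did not overlap between estrus and the rest. MRPS33, also of the small subunit, was not among the genes with this pattern. Its log2 fold change was 0.23 in YO-FvsA and 0.29 in YO-FvsP (limma adjusted p = 0.743 and 0.535). No difference between the subunits is read from these genes.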
